A study of Mus musculus with 4 samples.

Results

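Dividing GABAergic neuroblasts were taken from the dorsal ventricular-subventricular zone (V-SVZ) of OF1 mice by the UMIs of 9 genes, where a UMI is 1 counted transcript molecule. A cell was a member when its Dcx value x, the natural logarithm of 1 plus the UMIs per 10000 UMIs of the cell, lay above 1, when it held at least 1 UMI of Dlx1, Dlx2, Dlx5 or Dlx6 and at least 2 UMIs of Mki67 and Top2a together, and when it held no UMI of Egfr or Eomes. The rule found 831 cells among 19860 (4.18%) that had 2000 to 8000 detected genes and under 10% mitochondrial UMIs. They lay in 3 of the 4 libraries, with 249 cells at postnatal day 2 (P2), 219 in replicate 1 and 0 in replicate 2 of P12, and 363 at P22.

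The libraries came from wild-type animals of the outbred OF1 strain with no treatment, and all cells were viable cells sorted after microdissection of the dorsal wall. According to the methods, 2 mice were pooled at each time point. Male mice were intended, but 1 female was found afterwards at P2, so that sex is mixed at that age. A library is therefore a pool with no animal of its own, and P2 and P22 have 1 library each. The members rest on 3 libraries of 3 ages, so that age, pool and library cannot be told apart, and a test between classes of cells within these libraries measures how far the difference repeats over them.

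Neuroblasts of the postnatal V-SVZ are young neurons that migrate to the olfactory bulb, where most become GABAergic interneurons. Unlike most young neurons they can still divide on the way. They descend from transit-amplifying progenitors (TAPs), which carry the growth factor receptor Egfr, and the Dlx homeobox factors set the GABAergic fate. Dcx, which binds microtubules, marks the neuroblast stage, whereas Mki67, a coat protein of mitotic chromosomes, and Top2a, which untangles DNA, are made from S phase through mitosis.

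The members were set against 2 classes in the same libraries. Nondividing neuroblasts passed the same gate with no UMI of Mki67 and Top2a, and numbered 1360 at P2, 46 and 6 in P12 replicates 1 and 2, and 1045 at P22. Dividing GABAergic TAPs held at least 2 UMIs of Mki67 plus Top2a, a Dlx UMI, Egfr and a further progenitor marker, with Dcx x at most 1 and no Eomes, and numbered 223, 530, 152 and 365 in the same order. Dividing glutamatergic neuroblasts, with Eomes in place of the Dlx genes, numbered only 8, 16, 9 and 3, too few for a test. Dcx, the Dlx genes, Mki67, Top2a, Egfr and Eomes chose the cells, so that their levels are a description.

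**Figure D1:**
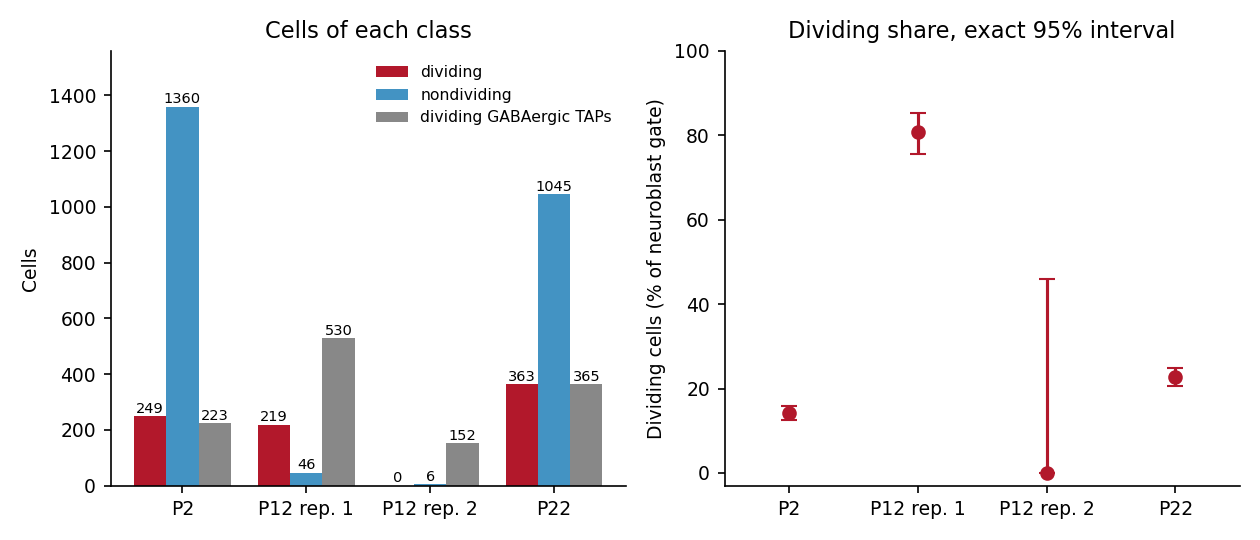
Left, number of dividing GABAergic neuroblasts (red), nondividing GABAergic neuroblasts (blue) and dividing GABAergic TAPs (grey) in each library. Right, dividing cells as a percentage of all cells of the neuroblast gate in each library, with the exact 95% interval for counting error; P12 replicate 1 stands at 80.8%, against 14.2% at P2 and 22.7% at P22, and P12 replicate 2 holds 6 cells in all.

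The share of dividing cells differed widely between the libraries. Of all cells of the gate, with those holding 1 UMI of Mki67 or Top2a included, 14.2% were dividing at P2 (exact Clopper-Pearson 95% interval 12.6 to 16.0), 80.8% in P12 replicate 1 (75.6 to 85.3) and 22.7% at P22 (20.6 to 24.8). These intervals cover counting error only. In P12 replicate 2 none of 6 cells was dividing, which allows a share of up to 50% at 3 counts, so that this library says little about it. The neuroblasts themselves were scarce at P12. Cells with Dcx x above 1 and a Dlx UMI made up 49.8% of the P2 cells, 8.99% and 0.609% of the cells of P12 replicates 1 and 2, and 44.3% of the P22 cells. The high share at P12 thus went with few nondividing cells, 46 against over 1000 at each other age. All cells with at least 2 UMIs of Mki67 plus Top2a made up 22.2%, 28.0%, 17.0% and 30.9% of the 4 libraries in the same order, a much narrower range. Both P12 replicates have the same label, and they held 219 and 0 members.

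The Egfr condition removed many cells at P12. Among dividing cells with Dcx and a Dlx UMI, Egfr was seen in 24.1% at P2 (83 of 344), in 50.9% of P12 replicate 1 (279 of 548), in 81.0% of P12 replicate 2 (17 of 21) and in 27.3% at P22 (142 of 520). Cells near the border of the Mki67 and Top2a condition were common at P2 and P22 and rare in P12 replicate 1. At P2, 139 cells of the gate held 1 UMI, 24 held 2, 8 held 3 and 217 held 4 or more. In P12 replicate 1 these numbers were 6, 2, 1 and 216, and at P22 they were 193, 37, 19 and 307. Just inside the Dcx border, at x of 1 to 1.2, lay 46, 24 and 67 members at P2, P12 replicate 1 and P22, and just outside it, at 0.8 to 1, lay 44, 13 and 40 cells that met the other conditions.

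Dividing neuroblasts gave about 2 times as many UMIs per cell as nondividing ones. Median UMIs per member were 21171 at P2, 21377 in P12 replicate 1 and 17351 at P22, against 10184.5, 11356 and 9178 in nondividing neuroblasts, and 29563, 25775 and 28897 in dividing TAPs. The difference held when the classes were formed on cells thinned to 5000 UMIs each, with medians before thinning of 23204.5, 23140.5 and 20223 against 10301, 13317 and 9409. A deeper cell more easily shows 2 UMIs of any gene, so depth moves with the class, and the tests were repeated on the thinned cells. Doublet scores were also higher in members at P2 and P22. The 5% of cells with the highest score held 20 of 249 members at P2, 9 of 219 in P12 replicate 1 and 40 of 363 at P22, against 30 of 1360, 3 of 46 and 20 of 1045 nondividing cells. Libraries shared 5 to 12 cell barcodes per pair, and none of these was a member in both.

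The label was checked against markers that the rule did not use. Gad2, which makes GABA from glutamate, had a UMI in 99.6%, 92.7% and 82.9% of the members at P2, P12 replicate 1 and P22, and Sp8, a zinc finger factor of olfactory bulb interneurons, in 97.6%, 94.5% and 91.7%. In the 85 cells of P22 with microglial or endothelial markers, which should lack both, Gad2 and Sp8 were each seen in 5.88%, at a median of 9218 UMIs per cell. The glutamatergic factor Neurod1 was seen in 1, 0 and 1 members. Of the 17 genes of the whole glutamatergic list, though, 14, 8 and 10 had at least 1 UMI among the members of these libraries. Nkx2-1, which marks the medial ganglionic eminence, had no UMI in any member, which allows a share of members with a UMI of up to 1.47% at P2 (exact 95% limit) and sets no limit on members that express it below detection. Its target Lhx6 had a UMI in 1, 0 and 0 members. The members thus carry the 2 GABAergic markers of their label.

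The genes of DNA replication and of mitosis went with Mki67 and Top2a, which the rule used, and are given without a test. Summed over 48 replication genes, the members held 5941, 3808 and 5704 UMIs per 1000000 UMIs (CPM) at P2, P12 replicate 1 and P22, against 1205, 1285 and 1487 CPM in nondividing cells. Summed over 57 genes of mitosis and kinetochores, they held 16262, 26317 and 15274 CPM, against 459, 475 and 632 CPM. The P12 members stood apart with fewer replication and more mitosis transcripts than those of P2 and P22. Nusap1, a spindle protein, shows the difference between the classes but hardly that of P12, with 749, 779 and 743 CPM in members and 5.41, 7.37 and 6.92 CPM in nondividing cells. Here and below, CPM of single genes in a comparison are scaled with TMM factors, so that the same members have slightly different values in each comparison.

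Promoters of these co-varying genes are shown because cell cycle genes are classically grouped by the elements near their starts: the CHR (cell cycle genes homology region) in genes of G2 and mitosis, and E2F sites in genes of S phase. Each line below gives 60 bases of RefSeq sequence (GRCm38.p6) read 5′ to 3′ on the gene's strand within the 250 bases before the start. Capitals mark matches of the CHR in the mitosis genes and of the E2F site in the replication genes, and other matches stay in lower case, such as a CHR match (TTCGAA) in Mcm7. The first 4 are the mitosis genes, and the last 4 the replication genes, with the smallest adjusted p among those that hold a match. Genes on a single chromosome were left out of this choice.
Kif22 (chr7:127042421-127042480, minus strand): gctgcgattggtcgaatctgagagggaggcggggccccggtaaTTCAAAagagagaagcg
Cdk1 (chr10:69352913-69352972, minus strand): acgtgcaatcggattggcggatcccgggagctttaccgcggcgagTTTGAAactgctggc
Bub1b (chr2:118597993-118598052, plus strand): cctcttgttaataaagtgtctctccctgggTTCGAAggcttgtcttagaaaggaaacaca
Ckap2l (chr2:129297213-129297272, minus strand): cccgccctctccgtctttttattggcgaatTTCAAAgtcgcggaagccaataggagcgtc
Cdc6 (chr11:98907983-98908042, plus strand): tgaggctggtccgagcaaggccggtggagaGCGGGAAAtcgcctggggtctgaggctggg
Dtl (chr1:191575545-191575604, minus strand): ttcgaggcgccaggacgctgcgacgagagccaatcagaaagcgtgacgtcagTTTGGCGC
Mcm5 (chr8:75109330-75109389, plus strand): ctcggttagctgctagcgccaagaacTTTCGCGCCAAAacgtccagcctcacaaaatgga
Mcm7 (chr5:138172019-138172078, minus strand): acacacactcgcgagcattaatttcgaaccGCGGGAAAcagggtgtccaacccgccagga

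The CHR was searched as TTTGAA or TTCGAA and the E2F site as TTTCCCGC, TTTGGCGC or TTTCGCGC, each on both strands. In Mcm5 2 E2F matches overlap. A CHR match stood in 34.7% of the 49 mitosis promoters found and in 17.5% of the 40 replication promoters found, beside 17.4% of all 27025 promoters. An E2F match stood in 4.08%, 22.5% and 1.59% in the same order, and a CCAAT box (CCAAT) in 73.5%, 57.5% and 34.5%. A match is a string of letters and was not tested as a site.

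**Figure D2:**
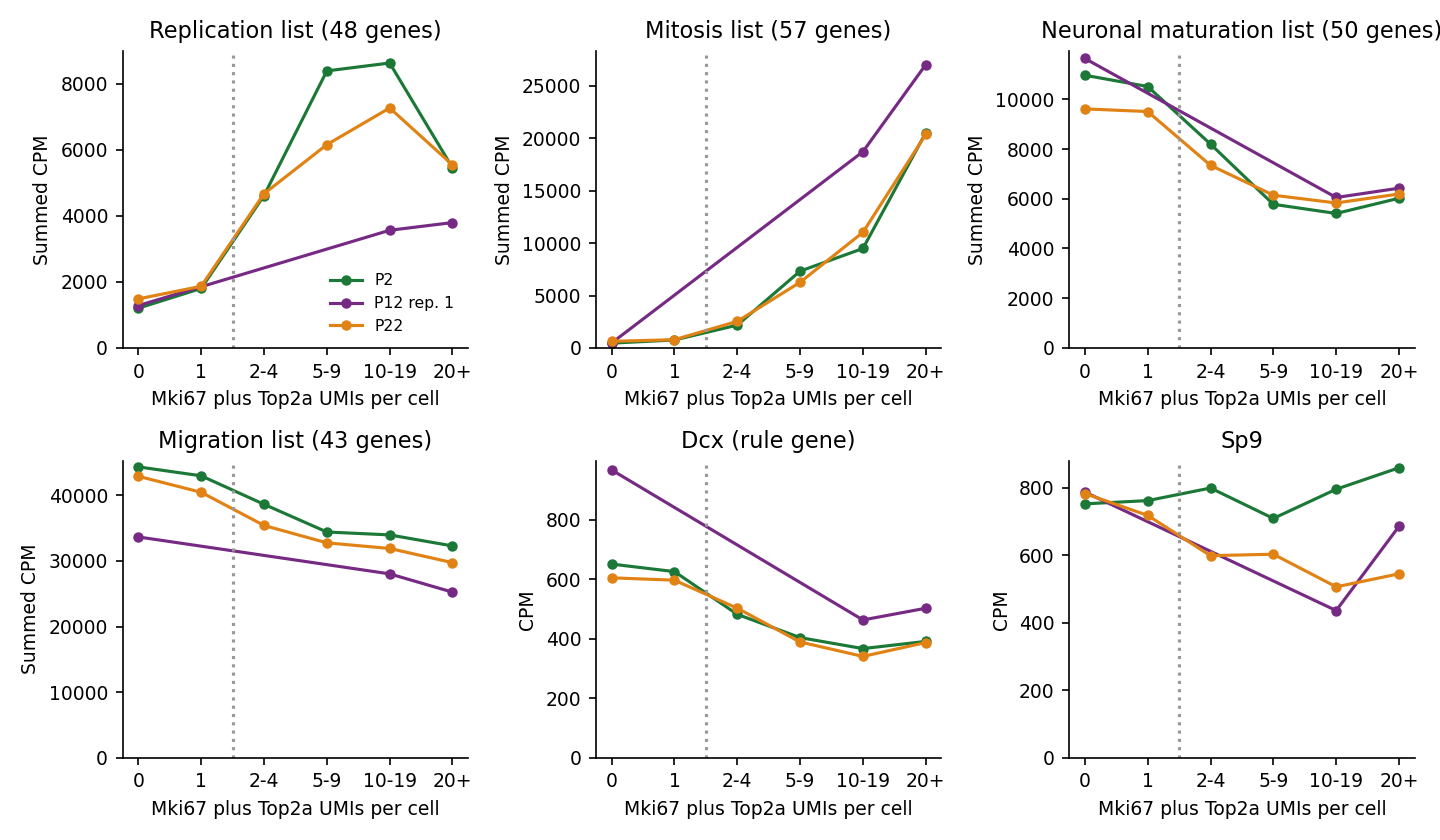
Levels in cells of the neuroblast gate, grouped by their UMIs of Mki67 plus Top2a (horizontal axis, bins of UMIs per cell), as CPM of the cells summed per bin in each library; the dotted line is the border of membership, and bins of P12 replicate 1 with few cells are left out. The replication list was highest in the bin of 10 to 19 UMIs at P2 and P22, the mitosis list in that of 20 or more, and the neuronal maturation list was lowest at 10 to 19 UMIs.

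Members differed among themselves along the cycle. In P2 cells with 2 to 4, 5 to 9, 10 to 19 and 20 or more UMIs of Mki67 plus Top2a, the replication list stood at 4617, 8392, 8631 and 5458 CPM and the mitosis list at 2175, 7326, 9486 and 20518 CPM. At P22 the same bins gave 4671, 6158, 7270 and 5545 CPM for replication and 2539, 6264, 11026 and 20357 CPM for mitosis. In both libraries mitosis transcripts were highest in the top bin and replication transcripts in the bin before it. The bins count UMIs of 2 genes of the rule, with which mitosis genes go, so that this order is a description. Depth rose over the bins as well, with median UMIs per cell of 14422, 16170, 18402 and 23933.5 at P2 and 14236, 14882, 15322 and 20401.5 at P22. Of the 219 members of P12 replicate 1, 204 lay in the top bin, against 154 of 249 at P2 and 200 of 363 at P22. Across members of a library, the shares of UMIs in both lists had a Spearman correlation of −0.42 at P2 (249 cells), −0.70 in P12 replicate 1 (219 cells) and −0.37 at P22 (363 cells). These cells share a library, and both shares are parts of 1 total.

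Neuronal transcripts fell gradually at P2 and P22, from cells with 0 UMIs of Mki67 plus Top2a to those with 10 to 19. The neuronal maturation list, with genes of synapses, neurofilaments and ion channels, stood at 10968 CPM in P2 cells with 0 UMIs and 10514 CPM in those with 1. In the bins of 2 to 4, 5 to 9, 10 to 19 and 20 or more it stood at 8198, 5777, 5409 and 6021 CPM. At P22 the list gave 9615 CPM at 0 UMIs, 9507 CPM at 1 UMI and 7344, 6143, 5831 and 6191 CPM in the same bins. Sp9, a factor that GABAergic neuroblasts need, showed no such fall at P2, with 752 CPM at 0 UMIs and 798, 709, 795 and 858 CPM above the border. At P22 it stood at 782 CPM at 0 UMIs and 598, 603, 506 and 545 CPM in the same bins.

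The first comparison asks what else differs between dividing and nondividing neuroblasts. Members held more of the early factors Gsx2 and Insm1 and less of the migration and maturation genes, while Sp9 and Sox11 did not pass the test. Of 12341 genes outside the rule, 2041 (16.5%) were higher and 1737 (14.1%) lower in dividing cells at an adjusted p under 0.05, by edgeR's quasi-likelihood test on UMIs summed per class in 3 libraries with the library as block (2 residual degrees of freedom per gene). The groups did not overlap for 29.2% of the genes. Without P12 replicate 1, which held 46 nondividing cells, 1620 genes were higher and 1203 lower.

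Gsx2, a homeobox factor of the lateral ganglionic eminence, stood at 60.4, 46.0 and 66.1 CPM in dividing neuroblasts at P2, P12 replicate 1 and P22, against 6.62, 1.47 and 13.3 CPM in nondividing ones. Every dividing value lay above every nondividing one, with a log2 fold change of 2.82 ± 0.24 (SE, adjusted p = 2.8e-05). Insm1, a zinc finger factor of dividing neuronal precursors (chr2:146221921-146225020 of GRCm38, plus strand), had 695, 619 and 514 CPM in dividing neuroblasts, against 147, 144 and 206 CPM in nondividing ones (log2 1.87 ± 0.17, adjusted p = 4.1e-05).

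Of 34 genes of GABAergic fate, 7 rose and 13 fell in dividing cells, with a median log2 of −0.36 beside −0.04 over all genes. Over all genes tested, 16.5% rose and 14.1% fell, so that the 7 rises were near the share over all genes. The later members of the list were among those that fell. Pbx3, a homeobox cofactor, had 43.6, 25.8 and 38.8 CPM in dividing cells and 294, 205 and 123 CPM in nondividing ones (log2 −2.42 ± 0.22, adjusted p = 4.3e-05). Tshz2, a zinc finger factor, fell to 12.7, 8.59 and 9.04 CPM in dividing cells, against 39.0, 59.0 and 43.1 CPM in nondividing ones. Sp9 and Sox11, factors of the stage itself, did not pass the test. Their differences changed sign between libraries, so that the test does not show equal levels. Sp9 had 930, 647 and 600 CPM in dividing and 761, 664 and 794 CPM in nondividing neuroblasts (log2 −0.05 ± 0.13, adjusted p = 0.80), and Sox11, which drives neuronal genes, had 2689, 3354 and 2508 CPM against 2173, 3295 and 2682 CPM (log2 0.08 ± 0.10, adjusted p = 0.59).

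Migration genes were mostly lower in dividing cells, with 26 of 43 that fell, 4 that rose and a median log2 of −0.50. Of all genes tested, 14.1% fell and 16.5% rose. Prokr2, the receptor through which prokineticin attracts neuroblasts to the olfactory bulb (chr2:132337733-132385447, minus strand), stood at 13.1, 2.25 and 2.47 CPM in dividing neuroblasts, against 137, 190 and 44.4 CPM in nondividing ones. This was the steepest fall among genes with at least 50 CPM in the higher class, a log2 of −4.33 ± 0.39 (adjusted p = 4.0e-05). Erbb4, a neuregulin receptor of migrating neuroblasts, had 17.2, 8.18 and 14.3 CPM in dividing and 104, 143 and 46.1 CPM in nondividing cells (log2 −2.66 ± 0.34). Robo2, a Slit receptor, had 63.6, 78.8 and 64.9 CPM, against 173, 255 and 151 CPM in nondividing cells (log2 −1.44 ± 0.12, adjusted p = 2.0e-05). Plxna4, a semaphorin receptor, and Mapt, the microtubule protein tau, fell by 2.19 ± 0.19 and 2.00 ± 0.20 on the log2 scale. Tubb2b, a neuronal tubulin, fell by less, to 2300, 1817 and 2107 CPM in dividing neuroblasts, against 4062, 3275 and 3996 CPM in nondividing ones. The adhesion molecule Ncam1, which carries the polysialic acid of migrating neuroblasts, did not pass the test, with 855, 1012 and 908 CPM in dividing cells and 882, 1044 and 1000 CPM in nondividing ones (log2 −0.08 ± 0.09, adjusted p = 0.54).

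The neuronal maturation list was lower as well, with 32 of 48 tested genes that fell, 0 that rose and a median log2 of −0.90. Over all genes tested, 14.1% fell. Myt1l, which represses non-neuronal genes, had 52.1, 31.3 and 38.6 CPM in dividing neuroblasts, against 227, 233 and 138 CPM in nondividing ones (log2 −2.23 ± 0.18, adjusted p = 1.6e-05). Rbfox3, the neuronal splicing factor known as NeuN, had 2.70, 1.43 and 0.658 CPM against 28.3, 17.7 and 4.41 CPM. Ina, a neurofilament protein, and Scn3a, a sodium channel, fell by 2.68 ± 0.23 and 2.08 ± 0.18 on the log2 scale. Nrxn3, a presynaptic adhesion molecule, did not pass the test, with 759, 675 and 924 CPM in dividing and 767, 941 and 1159 CPM in nondividing cells. With a Dcx border of 2 in place of 1, 21 of 40 maturation genes fell and 0 rose, with a smaller median log2 of −0.57. Of 41 migration genes 15 fell and 5 rose at that border, with a median of −0.32. Over all genes 606 were then lower and 1018 higher, with a median of −0.02.

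Meg3, an imprinted long noncoding RNA (chr12:109541001-109571726, plus strand), was the most abundant of the steep falls, with 252, 99.4 and 138 CPM in dividing neuroblasts and 2209, 2658 and 904 CPM in nondividing ones (log2 −3.49 ± 0.33, adjusted p = 5.1e-05). All 3 dividing values lay far below the lowest nondividing one. Arpp21, Tcp11l2, Socs2, Runx1t1 and Nxph1 fell as well, by 2.53 to 3.79 on the log2 scale. Pcp4, a calmodulin regulator, fell in every library, though its level in nondividing cells was by far highest at P2. Gucy1a1, a guanylate cyclase subunit, fell on average, but its fall rested mainly on P2. Pcp4 had 9.14, 0.818 and 1.81 CPM in dividing cells against 182, 8.85 and 12.7 CPM, and Gucy1a1 had 8.31, 4.09 and 3.78 CPM against 212, 4.42 and 8.62 CPM.

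Progenitor genes showed 14 rises and 1 fall among 37 tested, with a median log2 of 0.25. For this and the 2 lists below, the shares over all genes tested were 16.5% that rose and 14.1% that fell. Id1, an inhibitor of basic helix-loop-helix factors, had 23.3, 39.9 and 26.0 CPM in dividing neuroblasts and 4.61, 8.85 and 5.22 CPM in nondividing ones (log2 2.30 ± 0.19, adjusted p = 2.1e-05). The intermediate filament Nes had 80.8, 70.8 and 109 CPM, against 29.8, 35.4 and 49.9 CPM in nondividing cells. Notch1 and Sox21 rose by 1.76 ± 0.26 and 1.96 ± 0.27. Among cell cycle regulators outside the replication and mitosis lists, 24 of 35 rose and 4 fell. These included genes known to stop the cycle, as Cdkn2d, which inhibits the D cyclin kinases, had 249, 292 and 199 CPM in dividing and 41.5, 36.9 and 39.5 CPM in nondividing cells (log2 2.55 ± 0.13, adjusted p = 7.2e-07). Of 33 chromatin genes, 25 rose and 0 fell. Hmgb2, a DNA-bending protein, was the most abundant of those named by the rule, with 4793, 5864 and 4255 CPM in dividing neuroblasts, against 147, 221 and 250 CPM in nondividing ones. Regulators and chromatin genes that vary with the cycle go with Mki67 and Top2a, which the rule used. The rises in these 2 lists are therefore a description, also where an adjusted p is given.

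The largest rises by the naming rule were further genes of S phase and mitosis that no list held. Hist1h3b, Hist1h3c and Hist1h2af, which encode replication histones, rose by 8.02, 7.65 and 7.61. These genes have near-identical copies, and their transcripts mostly lack the poly(A) tail that the assay captures, so that their levels are uncertain. Esco2, which fixes sister chromatids together, had 224, 247 and 199 CPM in dividing cells and 1.40, 0 and 1.81 CPM in nondividing ones. Depdc1a, Kif14, Kif18b, Cep55, Cdca2, Sgo2a, Pif1 and Cdca5 rose by 6.20 to 7.75. All of these go with the genes of the rule.

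**Figure D3:**
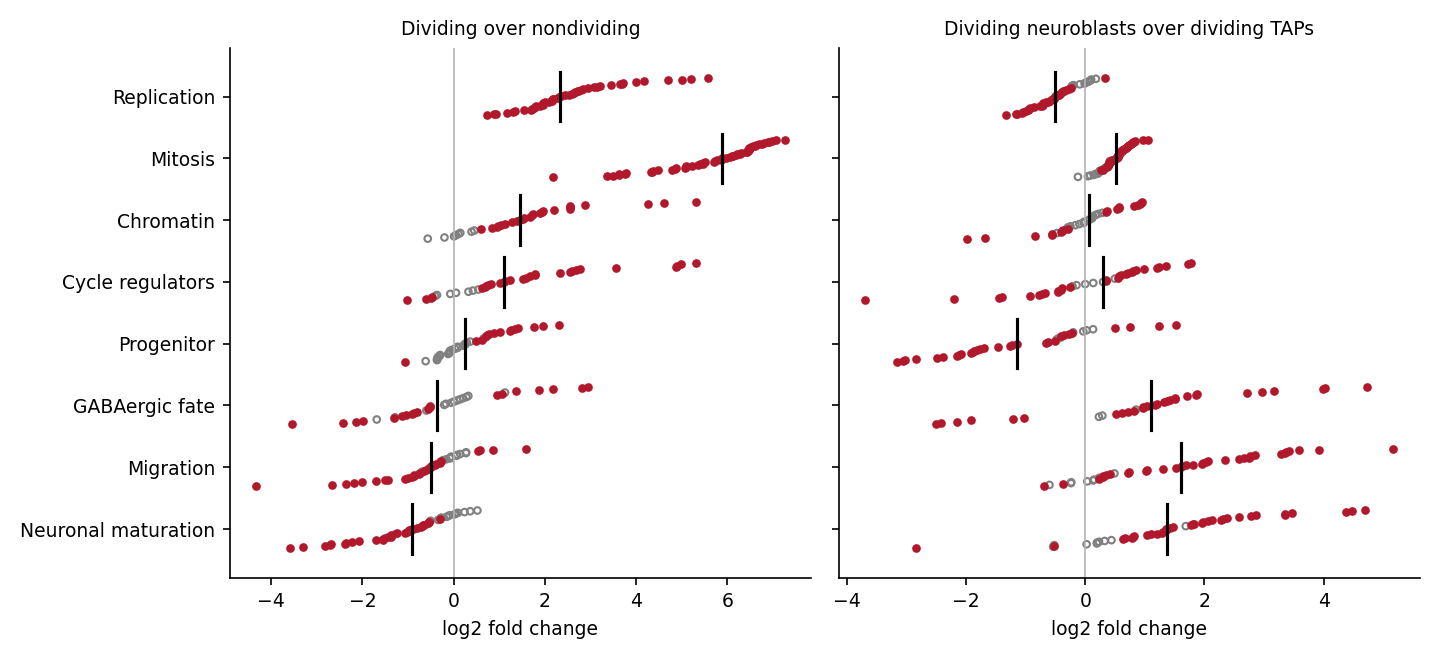
log2 fold changes of the genes of 8 lists (rows), dividing over nondividing neuroblasts (left) and dividing neuroblasts over dividing GABAergic TAPs (right), with 1 point per gene, filled red where the adjusted p is under 0.05, and a black bar at the list's median. The maturation median is −0.90 on the left and 1.37 on the right, and the progenitor median is 0.25 on the left and −1.14 on the right.

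The second comparison sets dividing neuroblasts against dividing GABAergic TAPs, so that both classes divide. Neuroblasts held far more of the GABAergic, migration and neuronal genes and less of the progenitor genes, and they carried a different set of cell cycle regulators. Of 12316 genes outside the gates, 3005 (24.4%) were higher and 3063 (24.9%) lower in neuroblasts. The Dcx border, Egfr and the further marker separate the classes, so that genes that vary with these follow the gates. TAPs were also deeper, and on thinned cells 1321 genes were higher and 1193 lower, from 54, 203 and 99 TAPs at P2, P12 replicate 1 and P22.

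Stmn2, a microtubule protein of growing axons (chr3:8509360-8561606, plus strand), had 2118, 1027 and 1514 CPM in dividing neuroblasts at P2, P12 replicate 1 and P22, against 81.6, 16.0 and 50.8 CPM in dividing TAPs, the largest rise by the naming rule (log2 5.17 ± 0.23, adjusted p = 1.3e-06). The classes lay over 10-fold apart in every library. Of 32 genes of GABAergic fate, 23 rose and 6 fell, with a median log2 of 1.10 beside 0.00 over all genes. Over all genes tested against TAPs, 24.4% rose and 24.9% fell. Gad1, the second GABA-making enzyme (chr2:70553072-70602014, plus strand), had 148, 139 and 93.8 CPM in dividing neuroblasts, against 6.90, 2.97 and 5.31 CPM in TAPs (log2 4.72 ± 0.22). Sp8 had 406, 345 and 324 CPM against 31.0, 14.9 and 23.2 CPM, and Sp9 had 902, 634 and 592 CPM against 159, 79.3 and 96.7 CPM. Dlx6os1, transcribed antisense at the Dlx5 and Dlx6 locus, rose by 3.99 ± 0.19, though reads of the overlapping genes may be shared. Hes6, a Hes1 antagonist, fell to 137, 83.2 and 107 CPM in neuroblasts, against 495, 294 and 440 CPM in TAPs. Gsx2 was also lower, by 1.02 on the log2 scale, and Insm1 was higher, by 0.72 ± 0.10, with 674, 607 and 507 CPM against 460, 302 and 333 CPM.

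**Figure D4:**
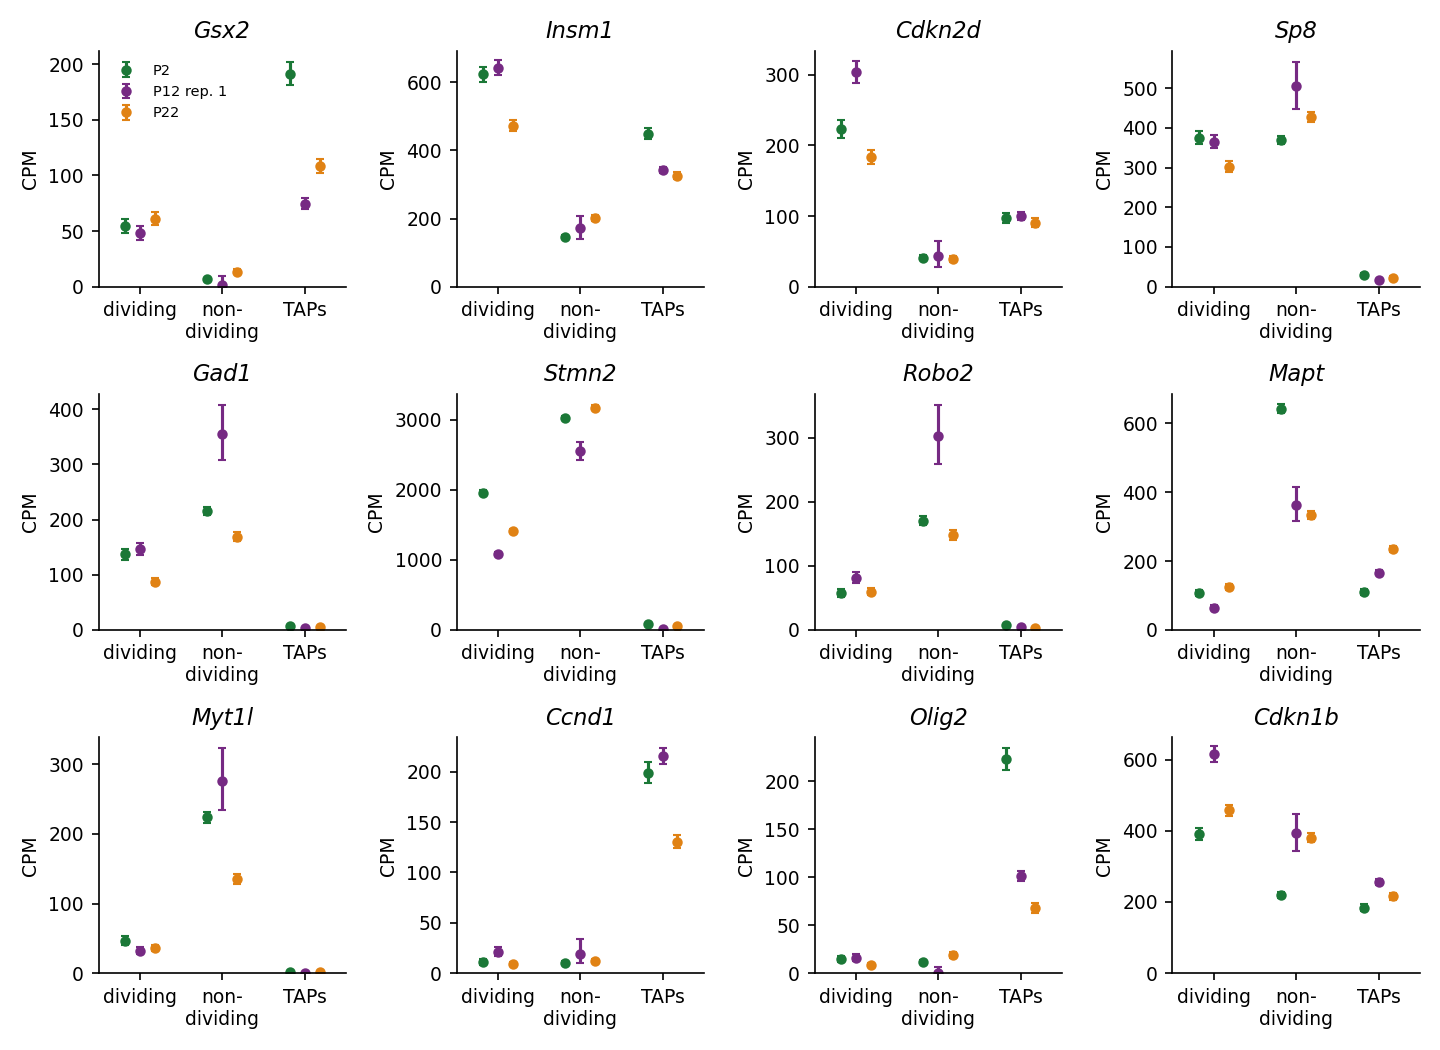
CPM (untrimmed totals) of 12 genes in dividing neuroblasts, nondividing neuroblasts and dividing GABAergic TAPs of P2 (green), P12 replicate 1 (purple) and P22 (orange), with exact Poisson 95% intervals for counting error. Gsx2 in dividing neuroblasts lies between both other classes, Insm1, Cdkn2d and Cdkn1b lie highest there within each library, and Ccnd1 and Olig2 are low in both neuroblast classes.

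Migration genes rose in 33 and fell in 2 of 43, with a median log2 of 1.60, where 24.4% of all genes tested rose and 24.9% fell. Ncam1, which did not pass the test between dividing and nondividing neuroblasts, had 829, 992 and 896 CPM in dividing neuroblasts, against 115, 134 and 159 CPM in TAPs (log2 2.74 ± 0.09, adjusted p = 6.2e-07). Tubb3, the class III neuronal tubulin, had 2108, 1088 and 1884 CPM against 353, 132 and 292 CPM, and Map1b, a microtubule-associated protein, rose by 3.37 ± 0.12. Robo2 had 61.6, 77.2 and 64.1 CPM in dividing neuroblasts and 7.49, 4.11 and 2.84 CPM in TAPs (log2 3.92 ± 0.23). Of 46 maturation genes 35 rose and 2 fell, with a median log2 of 1.37. Myt1l rose by 4.68 ± 0.19, and Nrxn3 had 736, 662 and 913 CPM in dividing neuroblasts, against 111, 78.3 and 160 CPM in TAPs. Shtn1, Synpr, St18, Nav3, Tiam2, Mir124a-1hg and Islr2 completed the largest rises, at 3.80 to 4.67. Robo2, Myt1l and Stmn2 were thus higher than in TAPs and lower than in nondividing neuroblasts. Stmn2, outside the rule for names in the first comparison, had a log2 of −0.87 ± 0.12 there (adjusted p = 7.8e-04).

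Progenitor genes fell in 26 and rose in 4 of 37, with a median log2 of −1.14, where 24.9% of all genes tested fell and 24.4% rose. Fabp7, a fatty acid binding protein of radial glia, had 184, 167 and 99.8 CPM in dividing neuroblasts and 1257, 676 and 518 CPM in dividing TAPs (log2 −2.39 ± 0.13, adjusted p = 3.5e-06). Olig2, a helix-loop-helix factor of progenitors and oligodendroglia, had 15.5, 15.2 and 8.93 CPM, against 228, 88.8 and 69.0 CPM in TAPs. The Notch ligands Dll1 and Jag1 fell by 2.84 ± 0.13 and 3.02 ± 0.18. Id4 went the other way, with 249, 289 and 312 CPM in dividing neuroblasts and 75.0, 122 and 102 CPM in TAPs (log2 1.52 ± 0.10). Sox2 did not pass the test, at 561, 442 and 608 CPM against 580, 407 and 487 CPM. The other large falls by the naming rule were Helt (−3.77), Mfge8 (−3.52), Zcchc24 (−3.20), Zfp36l1 (−3.01), Ednrb (−2.76), Thrsp (−2.74), Nbl1 (−2.70), Gas1 (−2.57) and Ckb (−2.51).

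The cell cycle regulators split into 16 rises and 13 falls among 35, beside 24.4% of all genes tested that rose and 24.9% that fell. Ccnd1, the D cyclin induced by growth factors (chr7:144929931-144939925, minus strand), had 11.7, 19.9 and 9.58 CPM in dividing neuroblasts, against 204, 190 and 133 CPM in dividing TAPs (log2 −3.69 ± 0.15, adjusted p = 8.3e-07). Its partner kinase Cdk6 had 59.4, 64.6 and 36.2 CPM, against 225, 294 and 206 CPM in TAPs. Ccnd2, another D cyclin, which was chosen after its values were seen, was the D cyclin at the higher level on this scale of UMIs, with 4322, 3586 and 4767 CPM in dividing neuroblasts and 2334, 2794 and 3632 CPM in TAPs (log2 0.55 ± 0.10, adjusted p = 0.0024). Several genes known to hold the cycle back were higher in dividing neuroblasts, though not Gadd45g, which fell by 1.40 on the log2 scale. Cdkn1b, the kinase inhibitor p27, had 423, 582 and 490 CPM in dividing neuroblasts and 189, 225 and 220 CPM in TAPs (log2 1.23 ± 0.08, adjusted p = 6.0e-06). The antiproliferative gene Btg1 and the unconventional cyclin Ccng2 rose by 1.72 ± 0.09 and 1.77 ± 0.11. Between dividing and nondividing neuroblasts, where both were chosen after their values were seen, Cdkn1b had a log2 of 0.72 ± 0.13 and Btg1 of −1.02 ± 0.11 (adjusted p = 0.0024 and 1.3e-04).

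Replication and mitosis genes moved in opposite directions against TAPs, where 24.4% of all genes tested were higher and 24.9% lower. Of 48 replication genes 1 was higher and 31 were lower in dividing neuroblasts, with a median log2 of −0.50. Mcm2 and Mcm3, subunits of the replicative helicase, fell by 1.04 ± 0.16 and 1.14 ± 0.17, with Mcm3 at 86.0, 47.5 and 135 CPM in dividing neuroblasts, against 163, 166 and 230 CPM in TAPs. Of 57 mitosis genes 43 were higher and 0 lower, with a median log2 of 0.51. Ube2c, which helps the anaphase-promoting complex to tag its targets, had 1477, 1629 and 1450 CPM in dividing neuroblasts and 868, 550 and 971 CPM in TAPs (log2 0.97 ± 0.16, adjusted p = 0.0012). Birc5, or survivin, had 641, 615 and 511 CPM against 421, 310 and 367 CPM. Both classes were gated on Mki67 and Top2a, which themselves had log2 values of 0.27 and 0.34. The split was smaller without P12 replicate 1, where 31 mitosis genes were higher, 1 was lower and the median was 0.24, and 3 replication genes were higher and 29 lower. With a Dcx border of 2, 10 mitosis genes were higher.

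Genes of other cell types moved with library in the members and were not low in all of them. Apoe, of the list of astrocytes and quiescent stem cells, had 101, 511 and 205 CPM in members at P2, P12 replicate 1 and P22. In nondividing neuroblasts it had 87.0, 787 and 299 CPM. Over all genes tested, 16.5% rose and 14.1% fell against nondividing neuroblasts, and 24.4% rose and 24.9% fell against TAPs. Among the 6 microglial genes tested against TAPs 5 rose and 0 fell, and of 9 tested against nondividing neuroblasts 0 rose and 4 fell. Without the cells of the highest doublet scores, 2 could be tested against TAPs, of which 0 rose, and 3 against nondividing neuroblasts, of which 1 fell, and without P22 none could be tested. The list of 10 microglial genes summed to 1.49, 2.76 and 73.1 CPM in members, to 1.19, 0 and 187 CPM in nondividing neuroblasts and to 0.429, 1.94 and 14.1 CPM in TAPs at P2, P12 replicate 1 and P22. All 10 were seen in P22 members, whereas 8 were at 0 in P2 members and 6 in those of P12 replicate 1, C1qb, C1qc, Tyrobp, Aif1, Ctss and Trem2. The list of 15 genes of astrocytes and quiescent stem cells summed to 138, 1084 and 369 CPM in members, 162, 2138 and 622 CPM in nondividing cells and 757, 2210 and 1152 CPM in TAPs. Of its 14 tested genes, 0 rose and 5 fell against nondividing neuroblasts, and 0 rose and 10 fell against TAPs. Of 7 tested glutamatergic genes 2 rose and 2 fell against nondividing neuroblasts. Lhx2 rose, with 53.6, 48.7 and 35.0 CPM in members and 20.5, 38.3 and 13.2 CPM in nondividing cells, as did Emx2 (log2 1.39 ± 0.24). Neurod6 and Neurod2 fell, and in nondividing cells both had UMIs at P2 alone. Stress genes of tissue dissociation showed 4 rises and 3 falls among 20 against nondividing cells, near the shares over all genes. Against TAPs these genes showed 1 rise and 9 falls, among them Fos at 301, 638 and 555 CPM in neuroblasts and 702, 1386 and 751 CPM in TAPs. Their part in the results above was not tested.

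**Figure D5:**
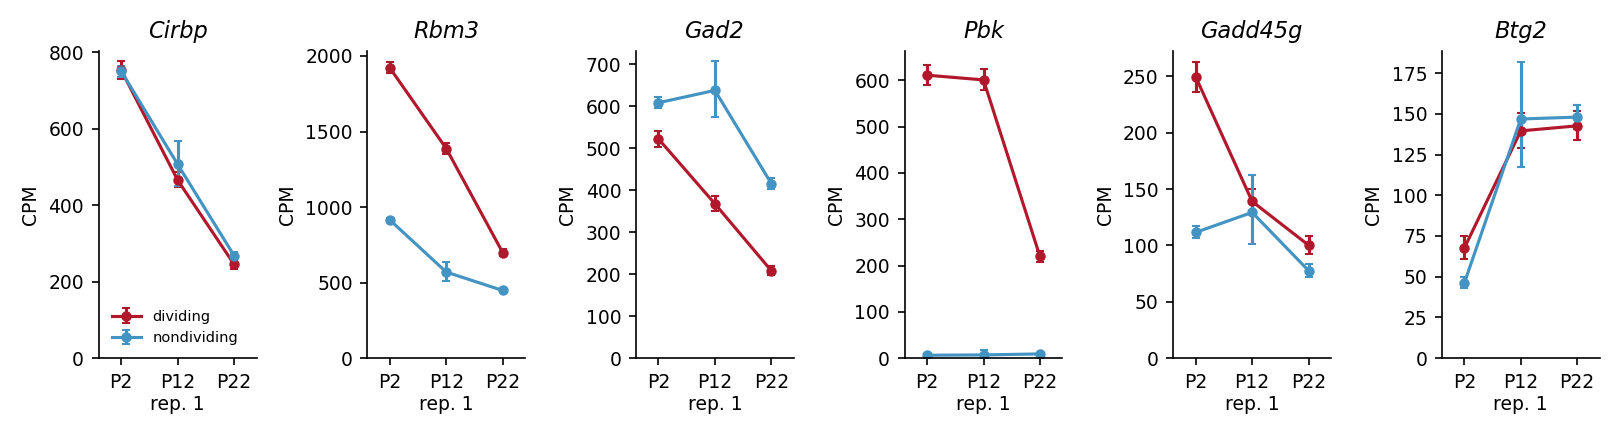
CPM (untrimmed totals) of 6 genes in dividing (red) and nondividing (blue) neuroblasts at P2, P12 replicate 1 and P22, with exact Poisson 95% intervals for counting error and 1 library per age. Cirbp, Rbm3, Gad2 and Gadd45g are lowest at P22 in both classes, Pbk in dividing cells stands at 611, 601 and 220 CPM, and Btg2 is lowest at P2.

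Few genes differed by size between the ages of the dividing neuroblasts, and with 1 library per age these are values without a test. Of 3416 genes with at least 50 CPM at P2 or P22, 5 (0.146%) were at least 2-fold higher and 16 (0.468%) at least 2-fold lower at P22 than at P2, with P12 replicate 1 between. Without the condition on P12, 20 were higher and 18 lower. The lower ones included the cold-inducible RNA-binding proteins Cirbp, with 753, 466 and 245 CPM, and Rbm3, with 1921, 1387 and 699 CPM at P2, P12 replicate 1 and P22. Nondividing neuroblasts followed the same order, with 750, 507 and 268 CPM of Cirbp and 914, 570 and 448 CPM of Rbm3.

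Gad2 fell with age in the members, at 522 (503 to 542), 368 and 208 CPM (197 to 220, exact Poisson 95% intervals), and stood at 609, 638 and 416 CPM in nondividing cells. Pbk, a mitotic kinase, had 611, 601 and 220 CPM in members and under 10 CPM in nondividing cells of every library. Gadd45g, a stress-induced gene of cell cycle exit, had 250, 139 and 100 CPM in members. Xist, the RNA of the inactive X chromosome, had 263 CPM at P2, 0.425 CPM in P12 replicate 1 and 0.151 CPM at P22, and the P2 pool held a female mouse. Tpm3-rs7, Gm10031, Spon1 and Lgals1 were also lower at P22 than at P2, by 2.38-fold to 4.81-fold.

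Of the genes higher at P22, Btg2, an antiproliferative gene, had 67.6, 140 and 143 CPM in members. Gm10320 had 0, 31.0 and 60.6 CPM in members, at P22 at least 108-fold higher than a floor of 3 counts in the members of P2. Csnk2a1 and Cyp51 were 2.05-fold and 2.02-fold higher. No gene of the replication and mitosis lists was among the 21, though Pbk, outside these lists, was. Both lists, when summed, lay outside the range of P2 and P22 in P12 replicate 1. The condition on P12 thus bars such genes, and their absence says nothing about stability with age. The medians of these lists over 36 and 56 genes with enough CPM were 0.05 and −0.14 on the log2 scale of P22 over P2, beside −0.01 over all genes.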

How the data were processed

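As deposited, the files hold whole-number UMI counts for each gene and each called cell, which the authors made from 10x Chromium V3 libraries with Cell Ranger against mm10, without normalization. The headers give version 3.1.0 for P12 and 5.0.1 for P2 and P22. The submitters' processing notes also name Seurat 3. Libraries held 4608 (P2), 8617 and 6400 (P12) and 4880 (P22) barcodes, of which 4027, 7006, 4596 and 4231 passed the cell filter. UMIs were summed per class and library with at least 20 cells of each class, and edgeR 4.0.16 was run on these sums. Its quasi-likelihood test used TMM factors and genes kept by filterByExpr, and each library was a block. Benjamini-Hochberg adjustment covered every gene fitted, with a threshold of 0.05. P12 replicate 2 held 0 members and entered no fit. The block pairs the classes of 1 library, which come from the same animals. Doublets were scored with Scrublet in scanpy 1.11.5 and kept. It called 49, 136, 12 and 51 cells, or 0.261% in P12 replicate 2, where it did not work. Scripts were tested on simulated data.

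Named are the 12 largest rises and 12 largest falls past the threshold with the same direction in all libraries and at least 50 CPM in the higher class, outside the rule and the replication and mitosis lists, up to 6 genes per list by adjusted p with members that did not pass, and the 10 largest folds each way between ages. The members and the gene lists were chosen with earlier results of these data known. Alternatives were other size factors, DESeq2 1.42.0, no filter, 2500 to 7500 genes, thinning to 5000 UMIs, doublet scores, borders of 4 UMIs and of Dcx 2, no block, and leaving out libraries. A marker of the TAP gate and some genes that met the naming rule are not reported here.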

Additional observations from a re-analysis of the deposited data

Results flagged for a closer look

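Pdgfra, a receptor of oligodendrocyte precursors, differed between dividing and nondividing neuroblasts in opposite directions at different ages. Its log2 ratio of dividing over nondividing cells, with 0.5 UMIs added to each sum, was 1.497 at P2 and 2.792 in P12 replicate 1, where dividing cells were higher, and −2.031 at P22, where they were lower. Relative to all UMIs of the class, dividing neuroblasts held 17.7, 30.2 and 3.63 CPM of Pdgfra at P2, P12 replicate 1 and P22, and nondividing ones 6.27 CPM at P2, 2 UMIs in all at P12 replicate 1 and 15.1 CPM at P22. The difference between ages was not tested, since each age has 1 library with members. The list of 11 oligodendroglial genes summed to 84.2, 108 and 156 CPM in dividing neuroblasts and to 84.0, 75.2 and 285 CPM in nondividing ones.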

How the results depend on the processing

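Against nondividing neuroblasts, 2041 genes were higher and 1737 lower. Without the replicate block, which drops the pairing of classes within a library, these were 811 and 396, and with a Dcx border of 2 they were 1018 and 606. DESeq2's Wald test called 1123 lower. Leaving out 1 library gave 1620 to 1730 higher and 1201 to 1554 lower. Against dividing TAPs, 3005 genes were higher and 3063 lower. Without the replicate block these were 1013 and 932, on thinned cells 1321 and 1193, and with a Dcx border of 2 they were 1897 and 2023. Leaving out 1 library gave 2335 to 2731 higher and 2202 to 2787 lower. The cause of these moves was not tested. With the Dcx border of 2, members numbered 28, 53 and 49 at P2, P12 replicate 1 and P22, and TAPs 267, 689 and 439. On thinned cells, members numbered 290, 382 and 417, and TAPs 54, 203 and 99. The dividing share was 12.4% at P2 and 19.2% at P22 with at least 4 UMIs of Mki67 plus Top2a, and 25.9% at P22 with 2500 to 7500 genes. Between ages, 9 genes were higher at P22 on thinned cells, 35 higher and 60 lower at a fold of 1.5, and 20 higher without P12 replicate 1, an alternative chosen after seeing the data. The comparison with dividing glutamatergic neuroblasts had under 20 cells per library, so that neither it nor its alternatives were run. With 1 library per age, differences between ages rest on counting error alone.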
